A study of Homo sapiens with 16 samples.

Results

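CYP1B1 and 4 other genes of the aryl hydrocarbon receptor pathway (AHR, TIPARP, CYP1A1 and NQO1) were followed in total RNA-seq of HEK293 cells, a human embryonic kidney line. They are 5 of the 19333 genes in the deposited table. CYP1B1 was chosen because its RNA rose most in the comparison of Top1-depleted with control cells among well counted genes, so its change is described and carries no test. The 4 other genes were added as members of the receptor pathway, each as the row on the stated strand that overlapped the hg19 position of the gene most. In every case only 1 row of that strand lay in the window, and no other row of the table overlapped the gene on either strand.

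The libraries came from cells transfected with a negative control RNA (scramble, 2 libraries) or with 10 nM of siRNA against Top1 (Top1 KD, 2 libraries) and harvested at day 5 after the first transfection. Top1 is the topoisomerase that relaxes supercoils ahead of and behind the transcribing polymerase. The depletion was transient, all libraries carried the same HEK293 background, and according to the design text each sample came from its own passage of the line. Which Top1 siRNA these libraries received is not given in the sources used here. TOP1 was not among the genes followed, so the level of its transcript was not analysed here. The paper reports that the knockdown was checked by Western blot and, for RNA, by RNA-seq. Between 14681774 and 18366226 reads per library fell on genes.

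The aryl hydrocarbon receptor is a transcription factor that waits in the cytoplasm with chaperones until a small molecule, such as a dioxin, a polycyclic hydrocarbon or a tryptophan product, binds it. It then enters the nucleus, pairs with its partner ARNT and binds DNA elements with the core GCGTG next to its target genes. CYP1A1 and CYP1B1 are the classical targets and encode cytochrome P450 enzymes that oxidise aromatic hydrocarbons. TIPARP, another target, encodes a mono-ADP-ribosyltransferase that restrains the receptor. NQO1 encodes a quinone reductase that answers both to this receptor and to the oxidative stress factor NRF2.

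The stretches of DNA just before a RefSeq start of 2 of the targets are shown because they hold the receptor core. RefSeq promoter sequences of build GRCh38.p14 were found for 4 of the 5 genes, and CYP1B1 was not among them. The 250 bases before each start were searched on both strands for GCGTG, whose reverse complement is CACGC, and the matches are in capitals.
CYP1A1 (chr15:74725529-74725778, - strand): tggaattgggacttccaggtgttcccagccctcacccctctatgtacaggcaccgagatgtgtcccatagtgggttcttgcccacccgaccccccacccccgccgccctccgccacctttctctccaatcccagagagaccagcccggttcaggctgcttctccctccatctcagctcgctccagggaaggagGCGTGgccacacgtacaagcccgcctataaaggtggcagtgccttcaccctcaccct
TIPARP (chr3:156674340-156674589, + strand): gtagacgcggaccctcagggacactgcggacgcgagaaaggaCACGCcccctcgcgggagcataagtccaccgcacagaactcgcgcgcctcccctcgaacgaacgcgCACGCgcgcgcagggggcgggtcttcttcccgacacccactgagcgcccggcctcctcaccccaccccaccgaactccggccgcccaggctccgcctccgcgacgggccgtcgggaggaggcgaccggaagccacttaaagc
The CYP1A1 window held 1 match, which ended 52 bases before the start. The TIPARP window held 2, both read on the opposite strand, at 137 and 203 bases before the start. The other 2 TIPARP windows, which belong to other starts of the gene, held 0, as did the windows of AHR and NQO1. Of all 35116 RefSeq windows of this length, 32.2% held at least 1 match, so a match is common. The core of the antioxidant response element, TGACNNNGC, through which NRF2 acts, was in 0 of these 6 windows and in 10.9% of all windows. Elements farther than 250 bases before a start were outside the search, so a window without a match does not show that a gene lacks them. A match describes letters only, and no binding was measured in the files used here.

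Among the targets, CYP1B1 (ENST00000260630, chromosome 2, 38294652 to 38303323, minus strand, hg19) was 3.98-fold higher in Top1 KD than in scramble cells. Its DESeq2-normalized count, that is the read count divided by the size factor of the library, was 59.8 and 51.9 in scramble cells against 256 and 188 in Top1 KD cells (library 1 first, here and throughout). Both Top1 KD libraries were above both scramble libraries, and each Top1 KD library set against each scramble library gave 4 folds, from 3.15 to 4.94. The group means were 55.8 ± 5.54 (SD, n = 2) and 222 ± 48.4 (SD, n = 2) normalized counts. On the log2(normalized count + 1) scale the change was 1.96 with a standard error of 0.36.

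In reads, CYP1B1 was counted 56 and 59 times in scramble cells and 237 and 194 times in Top1 KD cells. In CPM, the usual scaling of reads to the total of the library, this was 3.67 (exact 95% binomial interval 2.77 to 4.77) and 3.21 CPM (2.45 to 4.14) in scramble cells. In Top1 KD cells it was 16.1 CPM (14.2 to 18.3) in library 1 and 11.8 CPM (10.2 to 13.5) in library 2. These intervals cover counting error only. The Top1 KD libraries differed from each other beyond counting error, with library 2 at 0.728 of library 1 (interval 0.599 to 0.884).

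The place of CYP1B1 at the head of the rises depends on the minimum level used to choose it. A larger rise was fitted for 110 of the 13086 tested genes, and all 110 had a mean under 100 normalized counts, the highest of them 90.7, against 139 for CYP1B1. Above that minimum the rule itself put CYP1B1 first, and the next gene in that order had a log2 change of 1.89 with a standard error of 0.27, so the order of those 2 genes is within their standard errors.

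**Figure D1:**
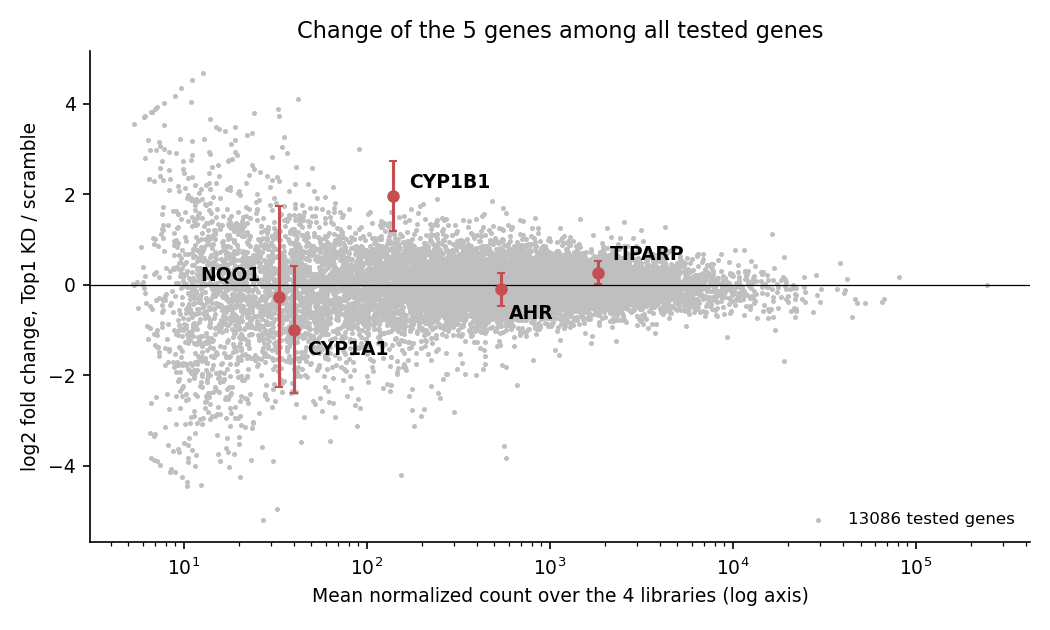
Log2 fold change of Top1 KD over scramble (vertical axis) against the mean normalized count over the 4 libraries (horizontal log axis) for all 13086 tested genes in grey and the 5 genes in red with the 95% interval of the fit (CYP1B1 was chosen on this comparison, so its interval is no test). CYP1B1 lies at 1.96, and its height among genes of similar level follows from that choice. The gene placed next by the same rule lies at 1.89, and ENST00000356189, with a mean of 90.7, lies higher at 3.01. AHR and TIPARP lie near 0 with narrow intervals, and CYP1A1 and NQO1 lie among low-count genes with wide intervals.

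The receptor itself did not pass the test. AHR (ENST00000242057, chromosome 7, 17338246 to 17385774, plus strand) had 545 and 579 normalized counts in scramble cells, and 558 and 490 after Top1 depletion. The groups overlapped, since Top1 KD library 1 lay between the scramble libraries. The means were 562 ± 23.8 (SD, n = 2) and 524 ± 48.1 (SD, n = 2), a log2 change of -0.10 with a standard error of 0.17 (limma, adjusted p = 0.746 over all tested genes). The 95% interval of the fold ran from 0.721 to 1.20, so a change of AHR RNA as large as 1.5-fold in either direction lies outside it.

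TIPARP (ENST00000295924, chromosome 3, 156392131 to 156424559, plus strand) had the highest normalized counts of the 5 genes, with 1656 and 1662 in scramble cells and 1837 and 2182 in Top1 KD cells. Both Top1 KD libraries were above both scramble libraries, by 1.11-fold to 1.32-fold over the 4 pairs. The means were 1659 ± 4.27 (SD, n = 2) and 2009 ± 244 (SD, n = 2), a log2 change of 0.27 with a standard error of 0.12. The unadjusted limma p was 0.0398 and the adjusted p = 0.148, so TIPARP did not pass. The 95% interval of its fold ran from 1.01 to 1.44. The scramble libraries differed by less than nearly all genes did, with 98.1% of tested genes differing at least as much between them.

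CYP1A1 (ENST00000379727, chromosome 15, 75011883 to 75017951, minus strand), the closest relative of CYP1B1 among these genes, was on the other side of 0. It had 42.7 and 61.6 normalized counts in scramble cells, and 15.2 and 41.7 after Top1 depletion. Both Top1 KD libraries were below both scramble libraries, but the gap between Top1 KD library 2 and scramble library 1 was small, at 43 and 40 reads or 2.61 and 2.62 CPM. The means were 52.1 ± 13.4 (SD, n = 2) and 28.4 ± 18.8 (SD, n = 2) normalized counts, a log2 change of -0.99 with a standard error of 0.66 (limma, adjusted p = 0.341). The interval of the fold, 0.189 to 1.33, leaves room for a strong fall and for a slight rise.

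The low value of CYP1A1 came from Top1 KD library 1, with 14 reads (0.954 CPM, exact 95% interval 0.521 to 1.60). Without that library the log2 change was -0.29, and without Top1 KD library 2 it was -1.69. The Top1 KD libraries differed 2.73-fold in CPM (interval 1.47 to 5.41, counting error only). Of the 1602 tested genes with a mean between 20 and 80 normalized counts, 18.0% differed at least as much between the Top1 KD libraries on the log2(normalized count + 1) scale.

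NQO1 (ENST00000320623, chromosome 16, 69743304 to 69760854, minus strand) had no common direction in the Top1 KD libraries. It had 22.4 and 32.6 normalized counts in the scramble libraries, against 6.49 in Top1 KD library 1 and 71.7 in Top1 KD library 2. The first was below and the second above both scramble libraries, so the groups overlapped. The means were 27.5 ± 7.18 (SD, n = 2) and 39.1 ± 46.1 (SD, n = 2), and the log2 change was -0.26 with a standard error of 0.94 (limma, adjusted p = 0.886), although the mean itself was 1.42-fold higher in Top1 KD cells. The sign of the change was thus decided by the scale, and it followed the library left out, at 1.38 without Top1 KD library 1 and -1.90 without Top1 KD library 2.

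In reads, NQO1 was counted 6 times in Top1 KD library 1 and 74 times in Top1 KD library 2, an 11.0-fold difference in CPM (interval 4.81 to 30.9, counting error only). Only 30 of the 1602 tested genes with a mean between 20 and 80 normalized counts (1.87%) differed at least as much between these libraries. The scramble libraries, with 21 and 37 reads, differed 1.46-fold (0.835 to 2.63), which is within counting error.

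**Figure D2:**
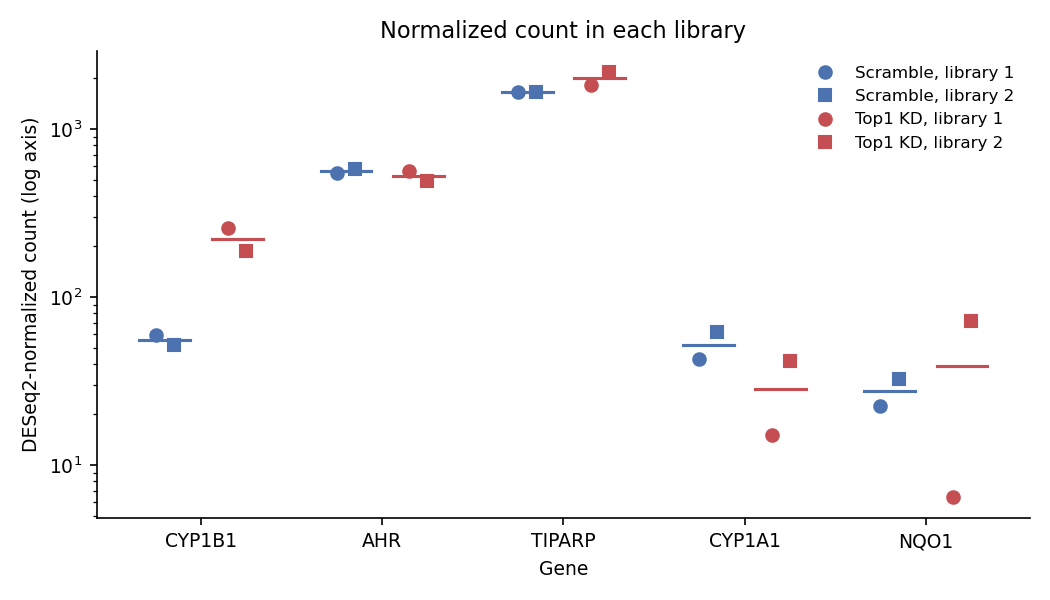
DESeq2-normalized count (vertical log axis) of each of the 5 genes in the 2 scramble libraries (blue) and the 2 Top1 KD libraries (red), with circles for library 1, squares for library 2 and lines at the group means. CYP1B1 moves from 51.9 and 59.8 up to 188 and 256, AHR stays between 490 and 579, and the Top1 KD values of NQO1 spread from 6.49 to 71.7.

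Between the Top1 KD libraries the genes did not deviate together. Library 1 was the higher of the pair for CYP1B1 and AHR and the lower for TIPARP, CYP1A1 and NQO1. In the scramble pair, library 1 was the higher for CYP1B1 and the lower for the 4 other genes, but each of these scramble differences was within counting error.

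Across the 4 genes taken by position, 0 were called, that is passed both an adjusted p of 0.05 and a 1.5-fold change, by limma on log2(normalized count + 1), while 1 gene, TIPARP, had an unadjusted p under 0.05, as had 29.3% of all tested genes. Over all tested genes 8.15% were called, 3.88% higher and 4.26% lower in Top1 KD cells. The balance between the directions turned with the scaling, at 508 higher and 558 lower as reported and 589 higher and 513 lower when libraries were scaled to their total reads. Of the 4 genes, 1 had a higher and 3 a lower fitted value in Top1 KD cells. Over all 13086 tested genes 6573 were higher and 6513 lower. The median log2 change of the 4 genes was -0.18 against 0.0025 over all tested genes. NQO1 is among the 3 lower genes, and its log2 change was 0.51 with edgeR and 0.51 with DESeq2 on the recovered reads. The split and the median of the 4 genes thus depend on the method used for NQO1. With edgeR's and DESeq2's count tests on the recovered reads, 0 of the 4 were called as well. The number of all genes called, 1066, was 316 without scramble library 1, 424 without scramble library 2, 572 without Top1 KD library 1 and 1329 without Top1 KD library 2. For a single gene, the smallest two-sided p that exact permutation of these 4 libraries allows is 0.333.

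Groups that did not overlap were common in these data, at 57.8% of tested genes in either direction. Both Top1 KD libraries were above both scramble libraries for 28.8% of tested genes, as they were for TIPARP and for CYP1B1, which was chosen on this comparison. Both were below for 29% of tested genes, as they were for CYP1A1.

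Ratios of reads within a library do not depend on how the libraries were scaled. CYP1B1 had 0.110 and 0.0897 reads for each read of AHR in scramble cells, and 0.459 and 0.383 in Top1 KD cells. For each read of CYP1A1 it had 1.40 and 0.843 in scramble cells and 16.9 and 4.51 in Top1 KD cells. Against TIPARP the ratio was 0.0361 and 0.0312 in scramble cells and 0.140 and 0.0862 in Top1 KD cells. For these 3 genes both Top1 KD libraries were above both scramble libraries. Against NQO1 they were not, with 2.67 and 1.59 in scramble cells and 39.5 and 2.62 in Top1 KD cells. CYP1B1 is the numerator of every ratio and was chosen for its rise in this comparison. A higher ratio in Top1 KD cells therefore carries no test. The ratios compare libraries and not the levels of the genes, since the counts are not scaled for transcript length. In bulk RNA a change in the number of cells that express a gene and a change in RNA per cell cannot be told apart.

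**Figure D3:**
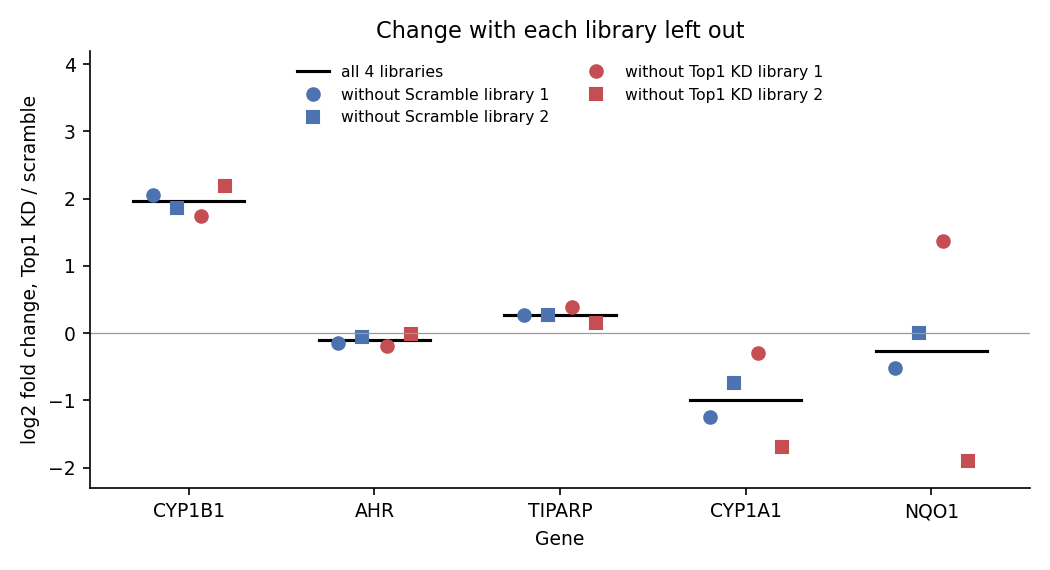
Log2 fold change of Top1 KD over scramble (vertical axis) for each gene with all 4 libraries (black line) and with each library left out in turn (blue for scramble, red for Top1 KD, circles for library 1, squares for library 2). CYP1B1 stays between 1.74 and 2.18 and TIPARP between 0.15 and 0.40. NQO1 runs from -1.90 to 1.38 depending on which Top1 KD library is left out. CYP1B1 was chosen for its rise in these same 4 libraries, so its narrow range is no test.

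Within 500 kb of CYP1B1 on chromosome 2, 4 genes were listed, all 4 were tested, and 0 were called, where 8.15% of all tested genes were. Their log2 changes ran from -0.34 to 0.91, and whether they differed from that of CYP1B1 was not tested. The value of 0.91, which is above the 95th percentile of all tested genes (0.86), belonged to the nearest gene, ENST00000354545, which lies 50.2 kb from the end of CYP1B1 (limma, adjusted p = 0.140). On the other side the nearest gene, ENST00000378954, was 219 kb away with a log2 change of -0.11 (limma, adjusted p = 0.441).

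CYP1A1 and NQO1 lie in denser neighbourhoods. Around CYP1A1, 15 of 20 genes within 500 kb were tested, and 2 were called higher and 0 lower, with log2 changes from -0.80 to 1.22. Around NQO1, 11 of 16 were tested, and 2 were called higher and 1 lower, with values from -0.62 to 1.38. AHR stood alone, with 1 tested gene of 3 within that distance, at 0.27. TIPARP had 4, all tested, from -0.25 to 0.38, with 0 called. For comparison, 8.15% of all tested genes were called, and whether any neighbourhood differed from that share was not tested.

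The genes whose pattern over the 4 libraries was most like that of CYP1B1 were sparsely counted. Both of those named here were under 10 normalized counts in both scramble libraries and so entered the fit only through the Top1 KD libraries, and the pattern they match is the one for which CYP1B1 was chosen. Likeness was measured as the Euclidean distance between log2(normalized count + 1) values, each gene centred on its own mean. The nearest was ENST00000274093 (chromosome 4, 175558065 to 175750465), at a distance of 0.195, with 4.27 and 4.40 normalized counts in scramble cells and 21.6 and 15.5 in Top1 KD cells. The next was ENST00000194155 (chromosome 5, 140474227 to 140476962), at 0.206, with 6.40 and 5.28 against 34.6 and 25.2. Of the pathway genes TIPARP was nearest to CYP1B1, at 1.77, with 3263 tested genes closer than it. AHR followed at 2.08, CYP1A1 at 3.27 and NQO1 at 3.48, with 12486 of the tested genes closer than NQO1.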

How the data were processed

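Total RNA depleted of ribosomal RNA was sequenced in 4 libraries, 2 per group. The other 12 samples of the series, from R-loop mapping and polymerase ChIP-seq, were not analysed here. The authors ran fastq-mcf on single-end reads and Tophat2 for mapping (version 2.0.5 and build hg19 in the submitters' processing notes), and kept reads that mapped uniquely. The notes also name HTSeq and DESeq2. The annotation release and the strand setting of the counting are not given in the sources used here. The values the authors deposited are a signal, the read count per gene divided by a DESeq2 size factor. They are not scaled for length, so levels were not compared between genes. The deposited mean over libraries, the authors' log2 fold change with its error, test statistic (a score), p-value, adjusted p-value and call were not used. All 4 columns of library values were assigned from the labels, and 0 were left without a sample.

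Reads were recovered from the steps of the values, which were whole for 100% of values in each library within 0.02 of a read or 0.0011 normalized counts of rounding. The depth, from 14681774 to 18366226 reads on genes, limits precision, and intervals are exact (Clopper-Pearson) and cover counting error only, since reads without molecular identifiers are not independent molecules. The groups were compared with limma 3.58.1 (R 4.3.3) on log2(normalized count + 1) with a mean-variance trend, for 13086 genes that reached 10 normalized counts in 2 or more libraries. All 5 genes passed this filter. The fold change on this scale understates changes of low counts. P-values were adjusted over all tested genes (Benjamini-Hochberg), two-sided, and a called gene had to pass 0.05 and 1.5-fold. Count tests on the recovered reads (DESeq2 1.42.0 and edgeR 4.0.16), other scalings, filters and pseudocounts, a replicate block and leaving out each library were the alternatives. The genes, the lists and the thresholds were chosen with earlier results of these data known.

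The table names no genes, and 0 of its 19333 identifiers matched the name tables, so other genes of the pathway were not reported. The 5 genes were found by hg19 position and strand. Their spans in the table exceeded those of the RefSeq genes of the same name (GRCh38.p14) by 0.0695% to 2.28%. Which end differed was not examined, so a RefSeq start used for a promoter window may not be the start of the counted row. RefSeq lists an overlapping gene for AHR (LOC101927609), TIPARP (TIPARP-AS1) and NQO1 (NQO1-AS1), and without a known strand setting reads of an overlapping gene on the other strand cannot be told apart from theirs. The named genes were these 5, with the 2 most similar rows and the nearest rows given by identifier.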

Additional observations from a re-analysis of the deposited data

How the results depend on the processing

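Under the 9 other settings of test, scaling, filter, pseudocount and block, the log2 change of CYP1B1 was between 1.89 and 1.99, that of AHR between -0.11 and -0.08 and that of TIPARP between 0.26 and 0.30. That of CYP1A1 was between -1.03 and -0.87 under the 8 settings that could test it, since with a filter of 50 normalized counts neither CYP1A1 nor NQO1 was tested. AHR, TIPARP, CYP1A1 and NQO1 were not called under any setting run, with adjusted p from 0.111 to 0.173 for TIPARP outside the fits that left out a library. NQO1 changed sign, to 0.51 with edgeR and 0.51 with DESeq2 on the recovered reads (adjusted p = 0.776 and 0.809), which weigh library means rather than log values. With each library left out, limma assumed that the lone library of a group varied like the other group. NQO1 then ran from -1.90 to 1.38, CYP1A1 from -1.69 to -0.29 and AHR from -0.20 to -0.0087. TIPARP ran from 0.15 to 0.40 and CYP1B1 from 1.74 to 2.18. CYP1B1 was chosen for its rise in these same libraries, so its narrow ranges under all these settings are no test.

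The number of genes called was 1066. It was 1897 at the lower fold threshold tried, 340 at 2-fold, 1937 with no fold threshold and 113 with Bonferroni adjustment, and from 316 to 1329 with each library left out. The 9 other settings gave 1004 to 1117. Without scramble library 1 (175 higher, 141 lower) and without scramble library 2 (227 higher, 197 lower), as with total-read scaling, more genes were called higher than lower. The median log2 change of all genes went from 0.0025 to 0.027 when libraries were scaled to their total reads. The replicate numbers give no pairing, since deviations of same-numbered libraries had a correlation of -0.010 across genes. With the replicate block 1085 genes were called, and the log2 changes of the 5 genes were unchanged (CYP1B1 1.96, AHR -0.10, TIPARP 0.27, CYP1A1 -0.99, NQO1 -0.26) by construction. With 6 to 74 reads per library for NQO1 and 14 to 70 for CYP1A1, depth and the spread between the Top1 KD libraries limit what can be said of both.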
